A study of Mus musculus with 6 samples.

Results

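Cholesterol is built from acetyl-CoA in a chain of enzymes that runs through mevalonate and squalene, and fatty acids are built from the same precursor by a separate set of enzymes. Both sets are switched on by the SREBP transcription factors, which sit in the endoplasmic reticulum with the escort protein SCAP. When membrane sterol is plentiful, INSIG proteins hold SCAP back; when it is scarce, SREBP travels to the Golgi, is cut, and enters the nucleus. SREBF2 is known mainly for sterol genes and SREBF1 mainly for fatty acid genes, while liver X receptors, which sense oxidised sterols, drive the sterol exporters. In the embryo, sterol synthesis also supplies the cholesterol attached to Hedgehog ligands. The 34 genes described here were taken by name from both deposited tables, in which each had 1 row among 46078 genes. They comprise 7 genes of the mevalonate steps, 11 of the steps from squalene to cholesterol, 5 of sterol sensing and SREBP, 4 of sterol transport and receptor turnover, and 7 of fatty acid synthesis and desaturation. The first pair of groups, 18 genes, is called the sterol synthesis genes below.

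The libraries came from mesoderm that was dissected from embryos of embryonic day 7.25, labelled WT (the series text names TCF/Lef:H2B-GFP reporter mice), plated on fibronectin (3 to 4 h of attachment, medium with rat serum) and grown as explants. There were 3 groups of 2 libraries: untreated control explants, explants given 1 µM of an inhibitor labelled PD for 16 h, and explants given 10 µM YZ9, known as an inhibitor of the glycolytic regulator PFKFB3, for 16 h. Total culture time is 27 h in the sample labels but 24 h in the series text, and whether controls received a vehicle is not given in the labels. No label ties the 2 libraries of any group to different embryos or cultures. By Xist and Y-linked counts the libraries differed in sex within PD and within YZ9, so those pairs came from different embryos. Both controls were male, and whether they came from different embryos is not known. Each p-value rests on library-to-library spread. That spread may be technical between the controls and goes together with sex within PD and within YZ9.

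Total counts were 21253194 to 27810161 per library. By Xist and Y-linked counts, PD replicate 2 and YZ9 replicate 2 were female and the other 4 libraries male. Of 16 mesoderm markers, 15 or 16 had a count in each library, with summed levels of 379.9 to 594 CPM (counts scaled to a library of 1000000) in controls, 509.9 to 1077 CPM with PD and 469 to 839.8 CPM with YZ9; Tbx6, Mesp1 and Tcf15, markers of early and paraxial mesoderm, were at or under 0.269 CPM. The 10 epithelial and definitive endoderm markers summed to 5195 to 6128 CPM in controls, 7713 to 11975 CPM with PD and 5747 to 7232 CPM with YZ9, most of it keratins; Cdh1, the E-cadherin gene, was at 1.84 and 3.80 CPM in controls, 79.8 and 21.6 CPM with PD and 113 and 30.7 CPM with YZ9. The 10 visceral endoderm markers summed to 304 to 323 CPM in controls, 268 to 295.5 CPM with PD and 200.2 to 207 CPM with YZ9, most of it Dab2; Afp was at 34.3 CPM in PD replicate 1 and at most 5.76 CPM elsewhere, and Hnf4a was at 0 counts in all 6. The 8 blood and endothelial markers ranged from 143 CPM in YZ9 replicate 1 to 6825 CPM in control replicate 2. The 5 trophoblast markers summed to 18.6 to 19.5 CPM in controls, 39.8 to 294 CPM with PD and 42.5 to 127 CPM with YZ9, most of it Krt7 in the treated libraries, with Elf5 at or under 0.0805 CPM in all 6. The 6 neurectoderm and epiblast markers summed to 8.07 to 16.2 CPM over all libraries, and Sox1 was at 0 counts. The part of these other cells, and of sex, in the results below was not tested. In bulk RNA, fewer cells of a type and less RNA per cell cannot be told apart.

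The start-site windows of 4 members are shown to set 3 sterol pathway genes that were higher in both PD libraries beside Fasn, a fatty acid gene that was not. Each runs from 250 bases before to 50 bases after the RefSeq start (GRCm38.p6), 5′ to 3′ on the gene's strand, with capitals marking any match, on either strand, to TCACNCCAC (a form of the sterol response element that SREBP binds), CCAAT (the NF-Y site) or CACGTG (an E-box). Matches that overlap are run together.
Hmgcs1, chr13:119690101-119690400 on the plus strand: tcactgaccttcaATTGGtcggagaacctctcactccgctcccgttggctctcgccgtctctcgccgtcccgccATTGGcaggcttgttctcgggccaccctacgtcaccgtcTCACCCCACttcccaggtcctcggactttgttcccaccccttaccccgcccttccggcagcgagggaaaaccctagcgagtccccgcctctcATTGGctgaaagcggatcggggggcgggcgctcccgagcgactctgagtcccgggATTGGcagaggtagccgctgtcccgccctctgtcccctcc
Insig1, chr5:28071162-28071461 on the plus strand: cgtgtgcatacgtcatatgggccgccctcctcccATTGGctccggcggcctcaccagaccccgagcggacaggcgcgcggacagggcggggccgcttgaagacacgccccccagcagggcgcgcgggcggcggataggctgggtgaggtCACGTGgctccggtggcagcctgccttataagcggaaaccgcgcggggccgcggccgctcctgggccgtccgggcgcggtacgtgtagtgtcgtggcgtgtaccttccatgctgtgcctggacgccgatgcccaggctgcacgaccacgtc
Cyp51, chr5:4104648-4104947 on the minus strand: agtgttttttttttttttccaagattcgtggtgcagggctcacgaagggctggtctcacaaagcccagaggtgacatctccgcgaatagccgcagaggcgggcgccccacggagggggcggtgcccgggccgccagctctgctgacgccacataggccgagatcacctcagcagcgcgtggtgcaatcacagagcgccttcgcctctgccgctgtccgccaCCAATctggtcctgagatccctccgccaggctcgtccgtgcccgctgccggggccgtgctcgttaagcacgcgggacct
Fasn, chr11:120824498-120824797 on the minus strand: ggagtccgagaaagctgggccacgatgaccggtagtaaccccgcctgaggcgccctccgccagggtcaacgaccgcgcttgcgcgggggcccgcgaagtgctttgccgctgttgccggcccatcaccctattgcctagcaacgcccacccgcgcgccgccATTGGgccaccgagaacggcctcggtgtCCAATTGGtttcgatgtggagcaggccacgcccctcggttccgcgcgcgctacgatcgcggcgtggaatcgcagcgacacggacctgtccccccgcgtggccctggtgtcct
Hmgcs1, which makes HMG-CoA from acetyl-CoA units, had 1 match to the sterol element and 4 to CCAAT. Insig1, the sterol sensor that holds SREBP back, had 1 CCAAT and 1 E-box. Cyp51, the enzyme that removes a methyl group from lanosterol, had 1 CCAAT, and Fasn, the fatty acid synthase, had 3. RefSeq windows were matched for 26 of the 34 members, with none for Fdft1, Fdps, Sqle, Scd1, Scd2, Fads1, Stard4 or Abcg1. The counts that follow thus leave out Scd1 and Scd2, the fatty acid genes that were above both controls with PD. At least 1 CCAAT lay in a window of 14 of the 15 sterol synthesis genes that had one and of 1 of 4 fatty acid genes, while 37.4% of the 32851 windows of all genes held one. The sterol element form was in 1 of the 26 members, Hmgcs1, against 1.24% of all windows, and the E-box was in 6 of the 26, against 7.15% of all windows. Members with several start sites had several windows, which raises their chance of a match. These matches describe letters in a short window, and other forms of each element were not searched.

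In untreated explants the sterol pathway was expressed at every step, with the first enzymes highest. Levels between genes are given here as CPM per kilobase of exon. Acat2, the thiolase that joins acetyl-CoA units, stood at 109 ± 19.9 CPM per kilobase (SD, n = 2) and Hmgcs1 at 85.5 ± 1.61, the highest of the 34 members. Next came Sqle, the squalene epoxidase and a rate-controlling step, at 41.3 ± 0.294, Cyp51 at 40.7 ± 2.87 and Scd2, the stearoyl-CoA desaturase of embryonic and neural tissue, at 36.1 ± 3.15 CPM per kilobase; Sqle and Cyp51 did not differ beyond their spread. Scd2 was above its paralog Scd1, which stood at 2.97 ± 0.302. The enzymes that build the fatty acid chain were lower: Fasn stood at 4.60 ± 1.51 and Acaca, the acetyl-CoA carboxylase that starts fatty acid synthesis, at 0.611 ± 0.129 CPM per kilobase. Srebf2 stood at 5.45 ± 2.40 and Srebf1 at 1.97 ± 0.475 CPM per kilobase. Abca1 and Abcg1, the cholesterol exporters, were near the bottom with Acaca, at 0.196 ± 0.0467 and 0.876 ± 0.527. The level of Fdps, the farnesyl diphosphate synthase, at 1.83 ± 0.203, is uncertain because transcripts of near-identical pseudogenes exist, among them Gm3571 with 98.9% identity over 1062 bases, and because Gm43738 covers 26.7% of its exon bases on the same strand. Idi1 and Acaca also have near-identical copies, Gm13502 with 100% identity over 684 bases and Gm5182 with 99.2% over 6118 bases.

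**Figure D1:**
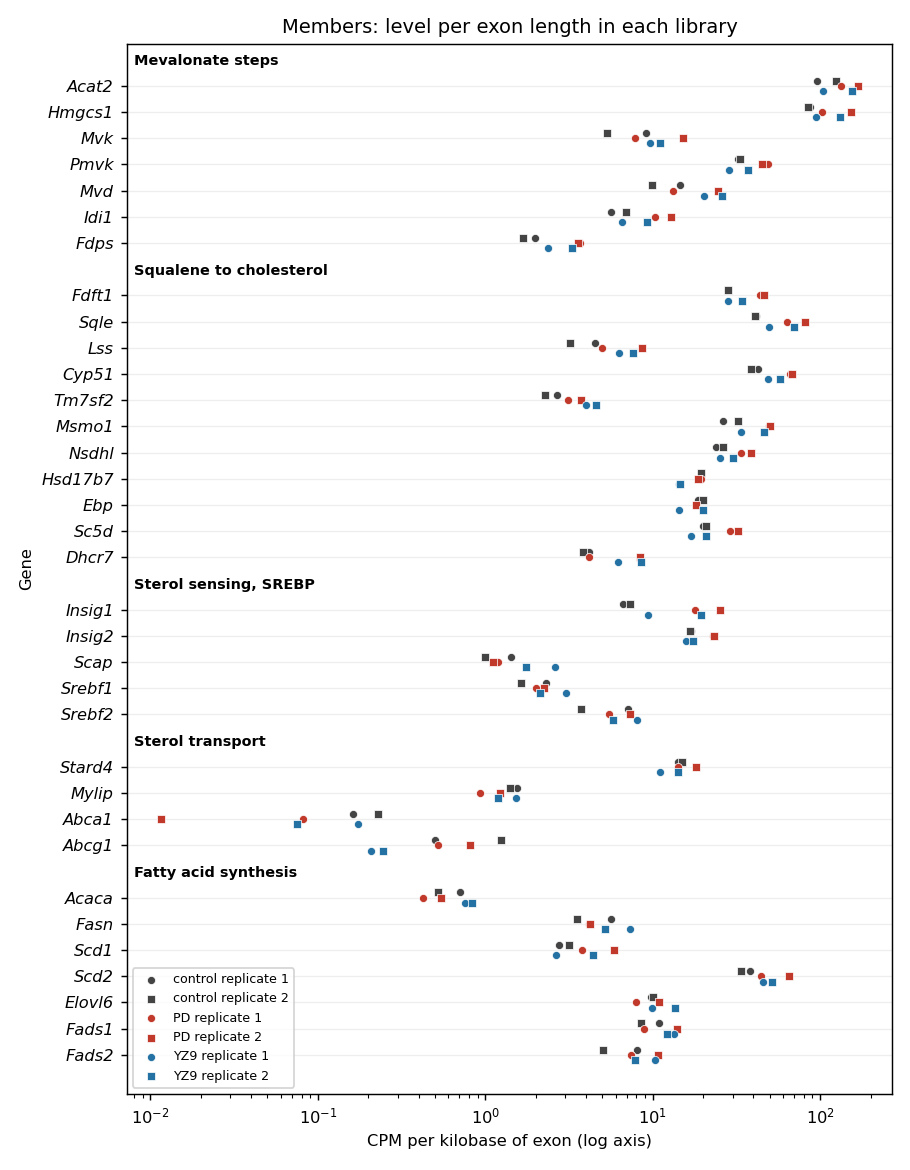
Level of each member in each library as CPM per kilobase of GENCODE exon (log axis); circles are replicate 1 and squares replicate 2, with control in grey, PD in red and YZ9 in blue. Acat2 and Hmgcs1 lie at the top in controls (109 and 85.5 CPM per kilobase on average) and Abca1 lies at the bottom (0.196).

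The first comparison set PD against control. Most sterol synthesis genes were higher in the PD libraries, from the first steps to near the last, while the fatty acid genes were mixed. Among the 18 sterol synthesis genes 16 had a positive log2 fold change, with a median of 0.64 (1.56-fold), and among the 7 fatty acid genes 4 did, with a median of 0.24; over all 15568 genes 50.5% were positive and the median was 0.00441. No member passed the threshold in edgeR (0 of 34 at an adjusted p of 0.05, where 0.0964% of all genes tested did), and the smallest adjusted p among members was 0.157. At an unadjusted p of 0.05, 14 members passed, all higher, of which 11 were sterol synthesis genes, while 5.42% of all genes passed as higher and 5.38% as lower. These 14 became 9 without control replicate 1, 8 without control replicate 2, 7 without PD replicate 2 and 8 with sex as a covariate. Both PD libraries lay above both controls for 17 of 34 members and for 13 of the 18 sterol synthesis genes, and below both controls for 3 members; over all genes these shares were 19.2% and 19.5%. DESeq2 on the same genes called 7 members, all higher (Cyp51, Fdft1, Fdps, Idi1, Insig1, Msmo1 and Sqle), where it called 4.04% of all genes. Without the filter on low counts, edgeR called 5 members (Cyp51, Fdft1, Insig1, Msmo1 and Sqle, all higher) and 2.71% of all genes. The authors' deposited table lists 5 members as higher at an adjusted p under 0.05, namely Insig1, Sqle, Cyp51, Msmo1 and Fdft1, where 3.67% of its genes with an adjusted p passed.

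Of the mevalonate steps, all 7 had a positive log2 fold change with PD, from 0.46 to 0.99, and 5 had no overlap with controls. Hmgcs1 (chromosome 13, 119690379 to 119708260) stood at 398 and 388 CPM in controls and at 473 and 707 CPM with PD (log2 fold change 0.59, SE 0.24, edgeR adjusted p = 0.453). Both PD libraries were above both controls, replicate 2 by more. Idi1, the isomerase that makes the reactive isoprene unit, stood at 19.6 and 24.4 CPM in controls and 36.4 and 45.2 CPM with PD (log2 fold change 0.89, SE 0.26, edgeR adjusted p = 0.257). Fdps stood at 8.32 and 7.11 CPM in controls and 15.6 and 15.2 CPM with PD (log2 fold change 0.99, SE 0.27, edgeR adjusted p = 0.242). In Fdps the PD libraries lay close together, both well above the controls. Pmvk, the phosphomevalonate kinase, stood at 55.7 and 57.3 CPM in controls and 84.0 and 76.7 CPM with PD (log2 fold change 0.51, SE 0.18). Acat2 was also above both controls (log2 fold change 0.46, SE 0.24), though its reads can be shared with the abundant Tcp1, whose transcripts match it at 98.7% over 445 bases. Mvk and Mvd, which phosphorylate mevalonate and make isopentenyl diphosphate, overlapped with controls: PD replicate 1 lay between the 2 controls for each, and replicate 2 lay above both.

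From squalene to cholesterol, 8 of 11 genes were above both controls with PD. Cyp51 (chromosome 5, 4081145 to 4104746) stood at 189 and 171 CPM in controls and 294 and 299.5 CPM with PD (log2 fold change 0.72, SE 0.14, edgeR adjusted p = 0.157). This was the smallest p among the members, and the difference was many times the gap between the PD libraries. Sqle (chromosome 15, 59315077 to 59331192) stood at 230.0 and 228 CPM in controls and 351 and 451 CPM with PD (log2 fold change 0.81, SE 0.21, edgeR adjusted p = 0.226). Fdft1, the squalene synthase that commits farnesyl units to sterols, stood at 118 and 119 CPM in controls and 186 and 196 CPM with PD (log2 fold change 0.68, SE 0.15, edgeR adjusted p = 0.186). Of the exon bases of Fdft1, 18.3% lie opposite Ctsb, and the library kit keeps no strand, so reads there cannot be told apart. Msmo1, a sterol methyl oxidase, stood at 161 and 199 CPM in controls and 306 and 309 CPM with PD (log2 fold change 0.77, SE 0.19, edgeR adjusted p = 0.225). Sc5d, the sterol desaturase near the end of the pathway, stood at 97.7 and 101 CPM in controls and 141 and 158 CPM with PD (log2 fold change 0.59, SE 0.16, edgeR adjusted p = 0.242). The controls of Sqle, Fdft1 and Sc5d nearly coincided, and the PD libraries of all 3 lay clear of them. Lss, the cyclase that forms lanosterol, and Tm7sf2, a sterol reductase, were above both controls as well, with log2 fold changes of 0.82 (SE 0.31) and 0.47 (SE 0.24). Nsdhl, a decarboxylating dehydrogenase encoded on chromosome X, had 0.54 (SE 0.17).

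Exceptions within the same steps were Hsd17b7, Ebp and Dhcr7. Hsd17b7, a ketosteroid reductase, stood at 99.1 and 99.6 CPM in controls and 99.8 and 94.8 CPM with PD (log2 fold change -0.03, SE 0.14, edgeR adjusted p = 0.973). Ebp, the sterol isomerase, also X-linked, stood at 43.0 and 45.9 CPM in controls and 41.9 and 42.0 CPM with PD. Dhcr7, which makes cholesterol in the last step, stood at 24.4 and 22.3 CPM in controls and 24.3 and 48.9 CPM with PD, so that replicate 1 lay between the controls and replicate 2 far above. The same split between the PD libraries was seen in Mvk and Mvd.

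**Figure D2:**
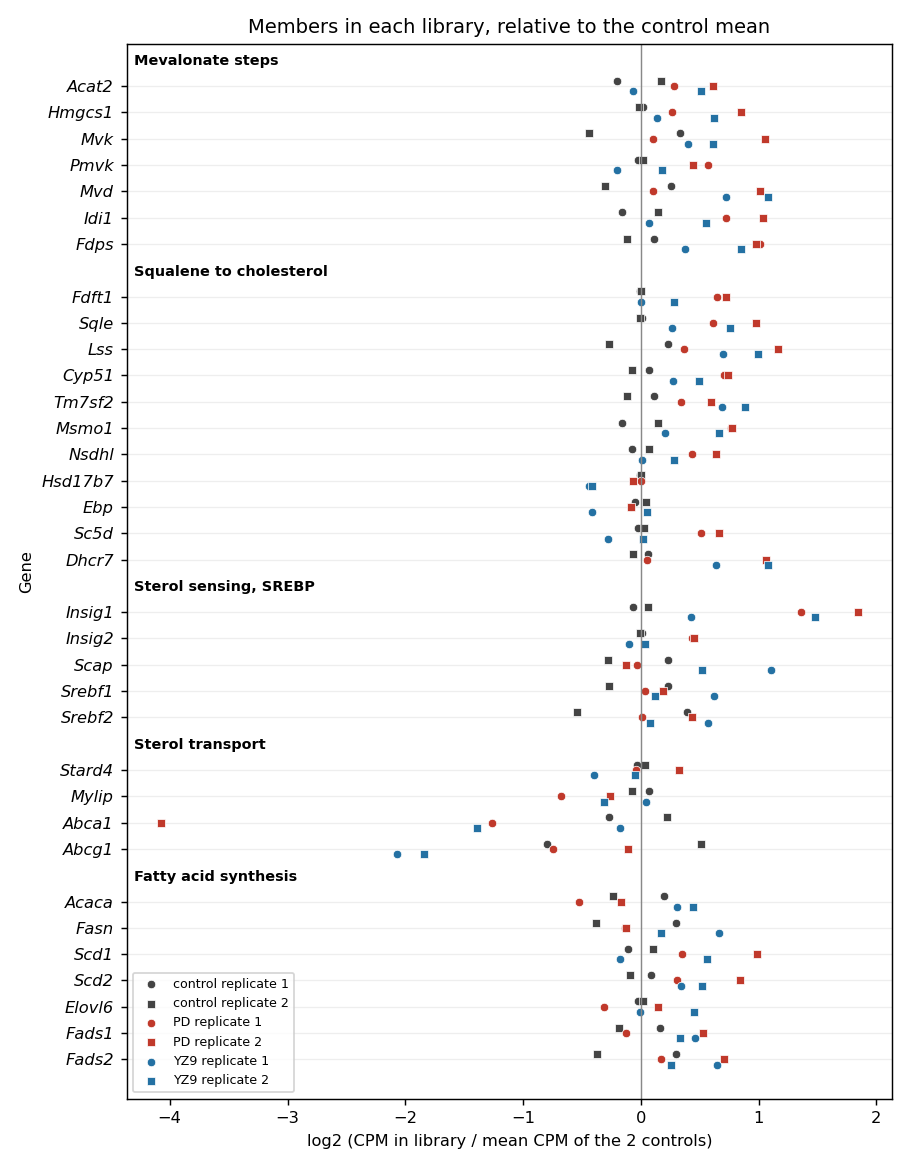
Each member in each library as log2 of its CPM over the mean CPM of the 2 controls; circles are replicate 1 and squares replicate 2, with control in grey, PD in red and YZ9 in blue. Both PD libraries lie right of both controls for 13 of the 18 sterol synthesis genes, and Abca1 in PD replicate 2 lies farthest left, at 3 counts.

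Among sensing genes, Insig1 had the highest positive log2 fold change of the 34 members with PD. Insig1 (chromosome 5, 28071363 to 28078662) stood at 20.7 and 22.6 CPM in controls and 55.5 and 77.6 CPM with PD (log2 fold change 1.62, SE 0.36, edgeR adjusted p = 0.187). Both PD libraries were more than double the higher control. DESeq2 called it, and the authors' deposited table gives it a log2 fold change of 1.62. Its paralog Insig2, which is known to be less tied to SREBP, stood at 58.9 and 58.3 CPM in controls and 79.2 and 80.2 CPM with PD (log2 fold change 0.44, SE 0.15, edgeR adjusted p = 0.324). The SREBP genes themselves overlapped with controls. Srebf2 stood at 51.3 and 26.9 CPM in controls and 39.4 and 52.8 CPM with PD, and Srebf1 at 13.0 and 9.18 CPM in controls and 11.4 and 12.6 CPM with PD. For Scap, the escort, the log2 fold change was -0.08 (SE 0.32).

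The sterol transport genes did not follow the synthesis genes with PD. Abca1, which exports cholesterol to lipid-poor particles, was covered by 45 and 63 counts in controls and by 22 and 3 with PD (log2 fold change -2.05, SE 0.90, edgeR adjusted p = 0.498). Both PD libraries were below both controls, at levels of 1.69 and 2.37 CPM against 0.846 and 0.121 CPM, but replicate 2 held few counts. Mylip, the ubiquitin ligase that marks lipoprotein receptors for breakdown, stood at 5.02 and 4.55 CPM in controls and 3.00 and 3.98 CPM with PD (log2 fold change -0.46, SE 0.35, edgeR adjusted p = 0.764). Abca1 and Mylip are known targets of liver X receptors, as are Abcg1, Srebf1 and Scd1. Abcg1 stood at 3.67 and 9.11 CPM in controls and 3.81 and 5.92 CPM with PD, within the controls, and Scd1 was higher. For Stard4, a carrier of cholesterol between membranes, it was 0.15 (SE 0.19) on the log2 scale.

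Of the fatty acid genes, the desaturases Scd1 and Scd2 were above both controls with PD and the others overlapped. Scd2 (chromosome 19, 44293674 to 44306864) stood at 209 and 185 CPM in controls and 244 and 354 CPM with PD (log2 fold change 0.60, SE 0.20, edgeR adjusted p = 0.341). Scd1 stood at 13.5 and 15.6 CPM in controls and 18.5 and 28.8 CPM with PD (log2 fold change 0.70, SE 0.34, edgeR adjusted p = 0.553). The transcripts of both share a stretch of 623 bases at 95.5% identity, so part of the Scd1 count can come from the more abundant Scd2. The chain-building enzymes did not share this difference. Fasn stood at 62.1 and 38.7 CPM in controls and 45.9 and 46.2 CPM with PD, and Acaca at 12.0 and 8.88 CPM in controls and 7.27 and 9.30 CPM with PD (log2 fold changes -0.13 and -0.33, SE 0.28 for both). For Elovl6, the elongase of saturated chains, it was -0.07 (SE 0.23). Fads1 and Fads2, the desaturases of polyunsaturated chains, overlapped with controls: Fads1 stood at 52.5 and 41.1 CPM in controls and 42.9 and 67.3 CPM with PD, and Fads2 at 26.6 and 16.7 CPM in controls and 24.4 and 35.4 CPM with PD.

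The lists were contrasted in each library by their mean log2 CPM. The sterol synthesis mean lay 0.42 and 0.74 above the control mean in the PD libraries, where the controls themselves lay 0.04 to either side of it, and the fatty acid mean lay -0.02 and 0.43 from it, with the controls 0.15 to either side. The sterol mean minus the fatty acid mean was 0.61 and 0.83 in controls and 1.16 and 1.03 with PD, a difference of 0.37 between groups. Both PD libraries were thus above both controls in this contrast, and the gap between the nearest libraries, 0.83 and 1.03, was slightly narrower than the gap between the 2 controls. The sterol synthesis genes took 0.183% and 0.186% of all counts in controls and 0.250% and 0.311% with PD, and the fatty acid genes 0.0430% and 0.0358% in controls and 0.0417% and 0.0599% with PD. PD replicate 2 stood above replicate 1 in both lists. Without it, the median log2 fold change was 0.40 for sterol and -0.12 for fatty acid genes, so the sign of the fatty acid median rested on that library, and without PD replicate 1 the medians were 0.76 and 0.53. The fatty acid median was 0.42 without control replicate 1 and 0.07 without control replicate 2. With sex as a covariate the medians were 0.44 and 0.08, and Insig1 had a log2 fold change of 1.22.

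**Figure D3:**
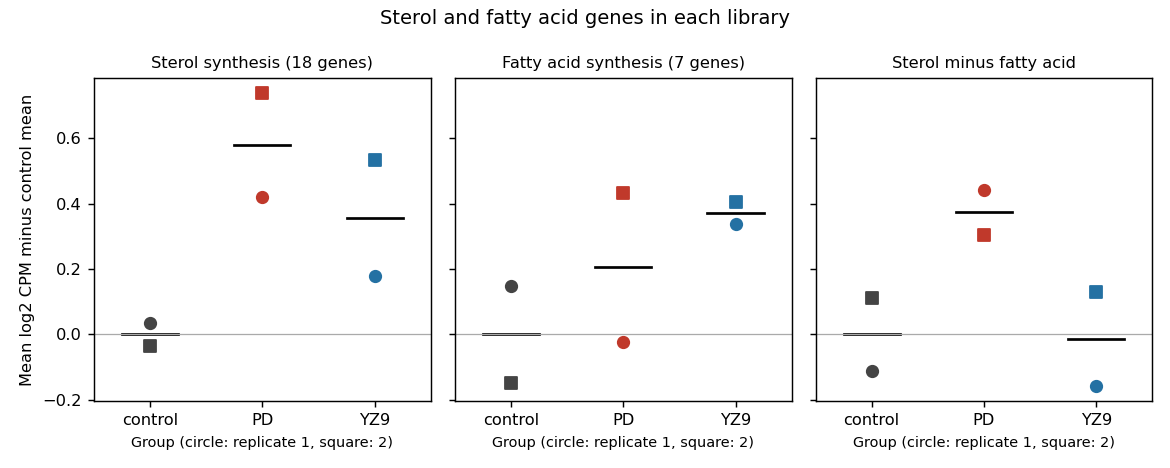
Mean log2 CPM of the 18 sterol synthesis genes, of the 7 fatty acid genes, and their difference, each minus the mean of the controls; circles are replicate 1, squares replicate 2, and bars the group means. In the right panel both PD libraries (0.44 and 0.31) lie above both controls, and the YZ9 libraries (-0.16 and 0.13) spread around them.

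YZ9 was compared with control by the same fit, and shares its controls with the PD comparison. The sterol synthesis genes had a median log2 fold change of 0.39 with YZ9, 14 of 18 positive, and the fatty acid genes 0.40, 7 of 7 positive; over all genes 50.2% were positive and the median was 0.00214. No member passed in edgeR (0 of 34 at an adjusted p of 0.05, where 0.00642% of all genes tested did). At an unadjusted p of 0.05, 8 members were higher and 2 lower, against 4.34% and 6.93% of all genes. These 10 became 1 without control replicate 2, 2 without YZ9 replicate 2 and 3 with sex as a covariate. DESeq2 called 1 member, Abcg1, as lower, where it called 3.33% of all genes. Without the filter edgeR called Abcg1 as lower and Insig1 as higher, with 2.11% of all genes called. The authors' deposited table lists Dhcr7 as higher and Abcg1 as lower at an adjusted p under 0.05, where 3.85% of its genes with an adjusted p passed. Both YZ9 libraries lay above both controls for 16 members (11 sterol synthesis genes and 3 fatty acid genes among them) and below both for 3; over all genes these shares were 21.1% and 24.5%.

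The members with the largest positive log2 fold changes with YZ9 after Insig1 were Mvd, Dhcr7, Lss, Scap and Tm7sf2, from 0.91 down to 0.79. Mvd stood at 27.2 and 18.4 CPM in controls and 37.6 and 48.2 CPM with YZ9 (log2 fold change 0.91, SE 0.36, edgeR adjusted p = 0.418). Dhcr7 stood at 24.4 and 22.3 CPM in controls and 36.3 and 49.3 CPM with YZ9 (log2 fold change 0.87, SE 0.35, edgeR adjusted p = 0.427). Both YZ9 libraries were above both controls for each of these enzymes. Lss stood at 48.7 and 34.4 CPM in controls and 67.5 and 82.8 CPM with YZ9 (log2 fold change 0.85, SE 0.31, edgeR adjusted p = 0.392). Tm7sf2 stood at 11.8 and 10.0 CPM in controls and 17.6 and 20.1 CPM with YZ9 (log2 fold change 0.79, SE 0.24, edgeR adjusted p = 0.326). Of the exon bases of Tm7sf2, 12.1% are shared with Vps51 on the same strand. Scap stood at 10.6 and 7.45 CPM in controls and 19.5 and 13.0 CPM with YZ9 (log2 fold change 0.84, SE 0.32, edgeR adjusted p = 0.404), and 13.2% of its exon bases lie opposite another gene. Without YZ9 replicate 1 the log2 fold change of Scap was 0.53. With sex as a covariate those of Mvd, Dhcr7 and Sqle were 0.59, 0.50 and 0.30. Sqle stood at 276 and 387 CPM with YZ9 (log2 fold change 0.53, SE 0.21, edgeR adjusted p = 0.417), above its controls in both libraries; the log2 fold change was 0.28 without YZ9 replicate 2. Cyp51 stood at 217 and 254 CPM with YZ9 (log2 fold change 0.39, SE 0.14), and Hmgcs1 at 432 and 605 CPM (log2 fold change 0.40, SE 0.24), both also clear of the controls.

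Insig1 stood at 29.1 and 60.2 CPM with YZ9 (log2 fold change 1.05, SE 0.36, edgeR adjusted p = 0.377). Both libraries exceeded both controls, but replicate 2 was about double replicate 1. Without YZ9 replicate 2 the value was 0.44, which is also the value in the male libraries alone, since that is the female YZ9 library; with PD it was 1.36 in the male libraries alone. The sterol median with YZ9 was 0.19 without replicate 2 and 0.59 without replicate 1, and with sex as a covariate it was 0.17, with 0.58 for Insig1. Insig2 stood at 54.6 and 60.2 CPM with YZ9, around its control values, and Pmvk at 49.0 and 63.9 CPM, likewise. Srebf2 stood at 58.1 and 41.4 CPM and Srebf1 at 17.0 and 12.0 CPM with YZ9; both overlapped with controls.

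Hsd17b7 was lower with YZ9 in both libraries, at 73.4 and 74.7 CPM against 99.1 and 99.6 CPM in controls (log2 fold change -0.42, SE 0.14, edgeR adjusted p = 0.348). Both pairs of libraries were tight and did not overlap. Abcg1, which moves cholesterol to mature lipoproteins, stood at 3.67 and 9.11 CPM in controls and 1.52 and 1.79 CPM with YZ9 (log2 fold change -1.94, SE 0.53, edgeR adjusted p = 0.282). Abcg1 (chromosome 17, 31057675 to 31117988) was below both controls, which differed from each other more than 2-fold; its log2 fold change was -1.15 without control replicate 2. The other exporter, Abca1, stood at 1.79 and 0.776 CPM with YZ9 and overlapped with controls, as did Mylip at 4.93 and 3.84 CPM. Stard4 was below both controls, with a log2 fold change of -0.21 (SE 0.19).

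All 7 fatty acid genes had positive log2 fold changes with YZ9, from 0.24 to 0.46. Their median was 0.23 without control replicate 2, and 0.26 with sex as a covariate, where 5 of 7 were positive; without YZ9 replicate 2, 6 of 7 were. Acaca stood at 12.9 and 14.2 CPM with YZ9, Scd2 at 250.4 and 282 CPM and Fads1 at 64.4 and 58.8 CPM, each above both controls (log2 fold changes 0.38, 0.43 and 0.40; SE 0.28, 0.20 and 0.25). Fasn stood at 80.0 and 56.6 CPM, Fads2 at 33.8 and 25.9 CPM and Scd1 at 12.9 and 21.5 CPM, each overlapping with controls. Elovl6 was at 0.24 on the log2 scale (SE 0.23). The sterol mean minus the fatty acid mean was 0.56 and 0.85 with YZ9 against 0.61 and 0.83 in controls, a difference of -0.01, and 1 YZ9 library lay below both controls and 1 above both. The sterol synthesis genes took 0.215% and 0.290% of counts with YZ9 and the fatty acid genes 0.0544% and 0.0582%.

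**Figure D4:**
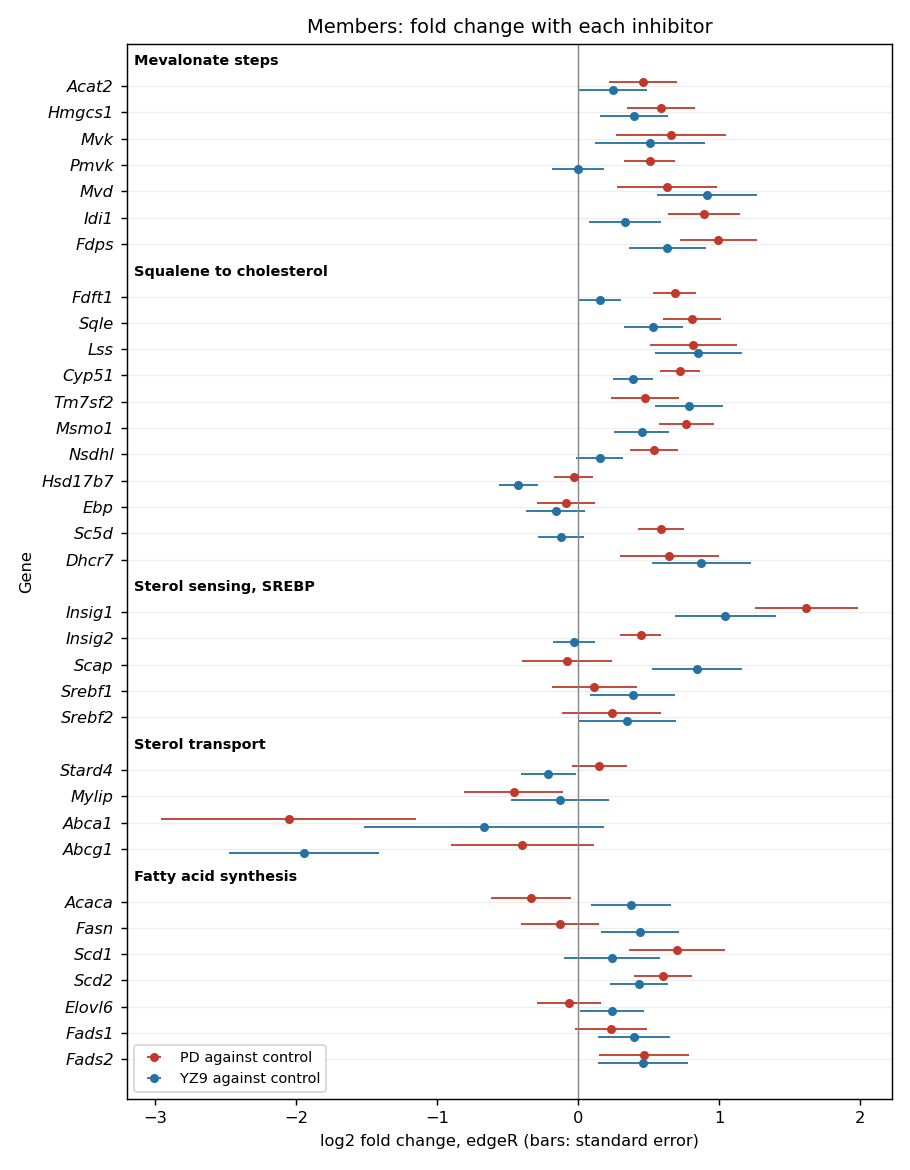
Log2 fold change of each member with PD (red) and with YZ9 (blue) against the same 2 controls, from edgeR; bars are standard errors. Fasn and Acaca lie left of 0 with PD (-0.13 and -0.33) and right of 0 with YZ9 (0.44 and 0.38), while Insig1 has the highest value with each inhibitor (1.62 and 1.05).

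PD was then compared with YZ9 in the same fit, in which the control libraries enter the estimate of the spread but not the fold change. Of PD over YZ9, the median log2 fold change was 0.30 for sterol synthesis genes, with 14 of 18 positive, and -0.16 for fatty acid genes, with 3 of 7 positive, against -0.00157 and 49.8% over all genes. The sterol median was 0.07 without YZ9 replicate 1, 0.47 without YZ9 replicate 2 and 0.17 without PD replicate 2, and the fatty acid median was 0.13 without PD replicate 1 and -0.53 without PD replicate 2, so the size of the sterol median and the sign of the fatty acid median depended on single libraries. No member passed in edgeR (0 of 34, where 0.122% of all genes tested did), 6 members were higher with PD and 2 lower at an unadjusted p of 0.05 (7.09% and 4.4% of all genes). These 8 became 1 without YZ9 replicate 1, 3 without PD replicate 2 and 4 without PD replicate 1. DESeq2 called Sc5d as higher with PD, where it called 3.43% of all genes. Without the filter edgeR called 0 members and 2.29% of all genes. Both PD libraries lay above both YZ9 libraries for 12 members and below for 4, where 21.6% and 21.4% of all genes did. Sc5d stood at 141 and 158 CPM with PD and 82.0 and 101 CPM with YZ9 (log2 fold change 0.71, SE 0.16, edgeR adjusted p = 0.216). Fdft1 stood at 186 and 196 CPM with PD and 119 and 145 CPM with YZ9 (log2 fold change 0.53, SE 0.15, edgeR adjusted p = 0.295). Abcg1 had the highest log2 fold change of the members here, 1.55 (SE 0.53, edgeR adjusted p = 0.362), with 3.81 and 5.92 CPM with PD and 1.52 and 1.79 CPM with YZ9. Pmvk, Insig2 and Hsd17b7 were also higher in both PD libraries at an unadjusted p under 0.05, with log2 fold changes of 0.51, 0.47 and 0.39. The 4 members that were lower in both PD libraries were Scap, Tm7sf2, Acaca and Fasn, with log2 fold changes of -0.92, -0.32, -0.71 and -0.57. The sterol minus fatty acid contrast differed by 0.39 between the inhibitors, and the nearest libraries stood at 1.03 with PD and 0.85 with YZ9.

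The members differed in GC content, from 41.9% in Idi1 to 59.1% in Scap. Between the 2 controls, members richer in GC were higher in replicate 1: over the 34 members the Spearman correlation of GC with the log2 ratio of control replicate 1 over replicate 2 was 0.60, and over 15513 genes it was 0.34. Srebf2, Mvk, Fasn and Fads2 were among those with the widest gap between controls in this direction. The widest gap of all went the other way, in Abcg1 (GC 52.7%), with 3.67 CPM in replicate 1 and 9.11 CPM in replicate 2. GC content also went with the YZ9 difference (0.37 over members, 0.19 over all genes). For PD over YZ9 the sign was opposite, both over members (-0.44) and over all genes (-0.15). For PD against control the values were -0.22 over members and 0.04 over all genes. These correlations are across genes that share the same libraries, and genes are not independent replicates. Split at the median GC of all genes, 49.4%, the median log2 fold change with PD was 0.63 for the 9 sterol genes above it and 0.72 for the 9 at or below it; with YZ9 the medians were 0.51 and 0.39, and for PD over YZ9 0.15 and 0.33. The part of GC content in these differences was not tested.

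Genes that surround the pathway were read from lists apart from the 34 members. Of 10 other sterol and isoprenoid genes, 0 passed in edgeR in any comparison. Erg28, a scaffold of the demethylation enzymes, was above both controls in all 4 treated libraries (log2 fold changes 0.55 with PD and 0.37 with YZ9). Nus1, which serves dolichol synthesis from the same isoprene units, was below both controls in all 4 (log2 fold changes -0.41 and -0.63). Fntb, a subunit of the farnesyl transferase, had a log2 fold change of 0.60 with YZ9. The list's median was 0.07 with PD and 0.23 with YZ9. Of 11 genes of SREBP processing and sterol handling, 0 passed, with medians of 0.21 and 0.39; Lipa, the lysosomal lipase that frees cholesterol from esters, stood at 75.1 and 76.4 CPM in controls and 131 and 154 CPM with PD (log2 fold change 0.91, edgeR adjusted p = 0.260). Osbpl2, a lipid transfer protein, had 0.59 with PD, Trib3, a pseudokinase of the stress response, 0.78 with YZ9, and Mbtps2, the protease that makes the second cut of SREBP, -0.57 for PD over YZ9. Of 15 tested genes of fatty acid supply and elongation, 0 passed, with medians of 0.27 and 0.21. Hsd17b12, an enzyme of long-chain elongation, had the smallest p of that list with PD, at 239.7 and 264 CPM in controls and 123 and 136 CPM with PD (log2 fold change -0.96, edgeR adjusted p = 0.106). Acsl3, which activates fatty acids, had the smallest with YZ9, at 50.3 and 57.6 CPM in controls and 104 and 113 CPM with YZ9 (log2 fold change 1.01, edgeR adjusted p = 0.181). Acly, which makes cytosolic acetyl-CoA from citrate for both pathways, stood at 195 and 114 CPM in controls, 188 and 310.0 CPM with PD and 345 and 258 CPM with YZ9. Elovl1, an elongase of very long chains, had a log2 fold change of 0.54 with PD and Hacd2, a dehydratase of elongation, 0.39 for PD over YZ9.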

How the data were processed

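Polyadenylated RNA of 6 mouse mesoderm explant libraries was sequenced. Per the submitters' processing notes, reads were handled with DESeq2 1.40.1, STAR 2.7.9a and CASAVA 1.8.2 on GRCm38. Which program counted reads, and on which annotation, is not given in the sources used here. Per the file headers, each deposited table has raw counts by gene, a normalized signal (the count over 1 size factor per library), a log2 fold change with its error, a test score and a p-value with its adjusted p-value, for 46078 genes. The control counts were identical in both tables and were joined. Fold changes and p-values of the authors are quoted only where named as theirs.

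Genes were filtered with filterByExpr (minimum count 10, minimum total 15), which left 15568 genes, all 34 members among them; libraries were scaled by TMM. A single fit of the 6 libraries was made with edgeR 4.0.16 (quasi-likelihood, 2-sided, Benjamini-Hochberg over all genes, threshold 0.05) in R 4.3.3. Each SE was derived from the fold change and its F statistic; each SD is over a group's 2 libraries. CPM are counts scaled to 1000000 by the TMM library size. List scores are means of log2 CPM (prior count 2) and have no test. The members and lists were chosen with earlier results of these data known. Members given library by library were up to 8 per inhibitor, ranked by p among those with no overlap between groups and an absolute log2 fold change of at least 0.5, plus a fixed set of 16 enzymes, regulators and transporters; Hsd17b7, Ebp and Pmvk were chosen after their values were seen, as were the members named in the comparison of PD with YZ9. Settings varied were DESeq2 size factors, other filters, DESeq2 1.42.0, limma-trend (limma 3.58.1), the 4 libraries of a comparison, the replicate block, sex, and leaving out each library. The fits were tested on simulated data for PD against control. At a simulated log2 fold change of 1, edgeR and limma-trend each recovered 17.9% of the changed genes and DESeq2 37.3%. At 2 the shares were 71.6% for edgeR and limma-trend and 83.6% for DESeq2. False calls were 10 with edgeR, 13 with limma-trend and 61 with DESeq2 among 15116 genes tested. The changed genes numbered only 67 at 1, 67 at 2 and 66 at a log2 fold change of 3. Set against these, false calls made up more than 0.05 of the calls with each tool, and the largest share with DESeq2. Only genes with a mean count over 50 were changed, so recovery at lower counts, as in Abca1, was not measured. Exon lengths, overlaps and GC content come from GENCODE M21, near-identical transcripts from blastn 2.17.0.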

Additional observations from a re-analysis of the deposited data

How the results depend on the processing

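The counts of genes past the threshold depended on the tool and on the libraries. For PD against control, 15 genes passed; 712 passed without the filter on low counts, 629 with DESeq2, 124 with sex as a covariate and 428 in male libraries alone. For YZ9 against control, 1 gene passed; these settings gave 556, 519, 122 and 183, and the 4 libraries of the comparison alone gave 5. For PD against YZ9, 19 passed; the settings gave 601, 534, 173 and 132, limma-trend 34 and the 4 libraries alone 0. Leaving out 1 library gave 0 to 33 genes with PD, 0 to 9 with YZ9 and 0 to 35 between the inhibitors, with 0 in each comparison when either control library was left out. Members passed only without the filter (5 with PD, 2 with YZ9) and with DESeq2 (7 with PD, 1 with YZ9, 1 between the inhibitors). The sterol minus fatty acid contrast with a median over genes was 0.55 with PD, -0.19 with YZ9 and 0.74 between the inhibitors. With the mean over genes, leaving out 1 library gave 0.26 to 0.49 with PD, -0.16 to 0.13 with YZ9 and 0.24 to 0.53 between the inhibitors. With the replicate block, 1 gene passed with PD, 3 with YZ9 and 12 between the inhibitors, with 0 members in each; the contrast was 0.37, -0.01 and 0.39. Same-numbered libraries deviated with a correlation over genes of -0.0961 for PD and control, 0.149 for YZ9 and control and 0.346 for PD and YZ9, and in the treated groups same-numbered libraries also share sex; the labels tie the numbers to nothing, and not every pair was over 0.1, so the block was not taken as a pairing. The cause of these shifts was not tested. The few counts of Abca1 limit its precision.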

Other observations

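Genes of lipid storage and breakdown lay outside the comparisons above. Plin2, the coat protein of lipid droplets, stood at 501 and 515 CPM in controls, 345 and 236 CPM with PD and 331 and 250.2 CPM with YZ9, below both controls in all 4 treated libraries (log2 fold changes -0.81 and -0.80, edgeR adjusted p = 0.248 and 0.291). Dgat2, which makes triglyceride, stood at 6.63 and 3.84 CPM in controls, 8.57 and 14.5 CPM with PD and 11.7 and 10.0 CPM with YZ9 (log2 fold changes 1.14 and 1.05, edgeR adjusted p = 0.355 and 0.403). Lpin1, a phosphatidate phosphatase, stood at 11.6 and 13.7 CPM in controls and 7.70 and 4.82 CPM with YZ9 (log2 fold change -1.02, edgeR adjusted p = 0.331). Chka, the choline kinase that starts phosphatidylcholine synthesis, stood at 21.7 and 16.3 CPM in controls and 30.0 and 31.8 CPM with YZ9 (log2 fold change 0.70, edgeR adjusted p = 0.344). Of the 10 triglyceride and phospholipid genes 0 passed the threshold. Of 10 genes of fatty acid oxidation, 0 passed, 0 had an unadjusted p under 0.05 in any comparison, and the medians were -0.06 with PD and -0.04 with YZ9.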
